A study of Homo sapiens with 24 samples.

Results

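MM1S is a human multiple myeloma cell line, a malignant plasma cell line, and its response to knockdown of the transcription factor IRF4 is described here from 6 RNA-seq libraries of a series that holds 24 libraries of 4 myeloma lines. The libraries were chosen by their labels: 3 of MM1S cells electroporated with a pool of siRNAs against IRF4 and labelled 48 hours (siIRF4), and 3 of MM1S cells labelled as DMSO controls at 0 hours (CTRL). The genes were chosen by their level: 12763 of the 25342 named genes in the deposited table had at least 1 TPM (transcript abundance scaled for gene length and library depth, with the same sum in each library) in at least 3 of these 6 libraries. The other lines, used below only where the MM1S response was set against theirs, were MM1R, a dexamethasone-resistant line from the same patient as MM1S, and KMS-12-BM and KMS-12-PE, with 3 siIRF4 and 3 CTRL libraries each and the same labels. The study's title joins IRF4 knockdown to catalytic inhibition of the acetyltransferase p300.

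The labels name no control siRNA and no electroporated control. Loss of IRF4, the entry of siRNA as such, electroporation, DMSO and the time in culture therefore cannot be told apart in any comparison between siIRF4 and CTRL. Both MM1S groups are of 1 established line, and nothing says that the replicates were separate cultures, so that the p-values rest on a spread among libraries that may be technical.

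IRF4 belongs to the interferon regulatory factors, which bind DNA elements built around GAAA repeats, alone or next to ETS and AP-1 family partners. In B cells it drives the step to the plasma cell, together with PRDM1 and XBP1, and myeloma cells of most genetic types are known to depend on it for survival even where the gene itself is not altered. Its known targets in myeloma include genes of the cell cycle, of lipid and glucose metabolism and of the plasma cell programme.

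IRF4 transcripts were 50.4% lower in siIRF4 cells than in CTRL cells. IRF4 had 154, 130.4 and 137 TPM in the siIRF4 libraries, against 298, 267 and 285 TPM in the CTRL libraries. The 2 groups did not overlap, with means of 140.5 ± 12.4 TPM in siIRF4 and 283 ± 15.2 TPM in CTRL (mean ± SD, n = 3 each). The log2 change of TPM + 1, siIRF4 minus CTRL, was -1.01 ± 0.065 (SE), with a Benjamini-Hochberg adjusted p = 1.46e-06 over all genes tested in limma. A two-sided exact permutation test of IRF4 alone gave p = 0.1, the smallest that 3 libraries against 3 allow. In what follows, a gene is said to have risen or fallen when its limma adjusted p was under 0.05, changes are log2 changes of TPM + 1 with their SE, and values per library are TPM in the order of the replicate numbers.

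The cells carried the markers of plasma cells. In the CTRL libraries SDC1, the plasma cell surface proteoglycan CD138, averaged 557 ± 15.6 TPM, XBP1 1331 ± 18.2 TPM and PRDM1 125 ± 4.92 TPM, while the B cell genes PAX5 and MS4A1 had means of 0.0633 and 0.0110 TPM in siIRF4 and 0.0383 and 0 TPM in CTRL. Other B cell genes were expressed: 15 of the 25 listed passed the filter, among them CD79B, with a mean of 88.1 TPM in siIRF4 and 62.2 TPM in CTRL, and SYK, with 38.99 TPM in siIRF4 and 48.6 TPM in CTRL. MAF, the oncogene that is translocated and highly expressed in this line, averaged 696 TPM in siIRF4 and 368 TPM in CTRL. Whole reads recovered from the TPM values put the depth at 20.03 to 20.99 M reads per siIRF4 library and 17.3 to 24.02 M per CTRL library. Across genes, Pearson's r was 0.992 to 0.994 for libraries of 1 group and 0.978 to 0.979 for libraries of different groups, and the leading principal component, with 65.8% of the variance, separated siIRF4 from CTRL.

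The response was broad and mostly small. Of 12763 genes, 6952 (54.5%) were called: 4006 (31.4%) rose and 2946 (23.1%) fell. Each count of list members below is to be read beside these shares, 31.4% and 23.1%. In 7883 genes (61.8%) the siIRF4 and CTRL libraries did not overlap. The change was under 0.25 on the log2 scale in 1877 of the called genes, 0.25 to under 0.5 in 3043, 0.5 to under 1 in 1741 and 1 or more in 291. Of the last class, 230 (1.8% of genes tested) rose and 61 (0.478%) fell. The median over all genes was 0.05, and median-of-ratios scaling moved it to 0.01 and the calls to 3434 higher and 3571 lower. Of the genes tested, 167 had passed the filter through the siIRF4 libraries only and 39 through the CTRL libraries only; the filter itself selects such genes for their difference.

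The balance of the calls varied with the level. Among genes with a mean of 100 to under 500 TPM, 24.8% rose and 44.7% fell, at 500 TPM or more 36.2% rose and 33.7% fell, and under 5 TPM 28.8% rose and 9.48% fell. The SE was larger for low genes, with a median of 0.13 under 5 TPM and 0.04 from 100 to under 500 TPM, so that small changes of low genes were not detectable at this depth.

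**Figure D1:**
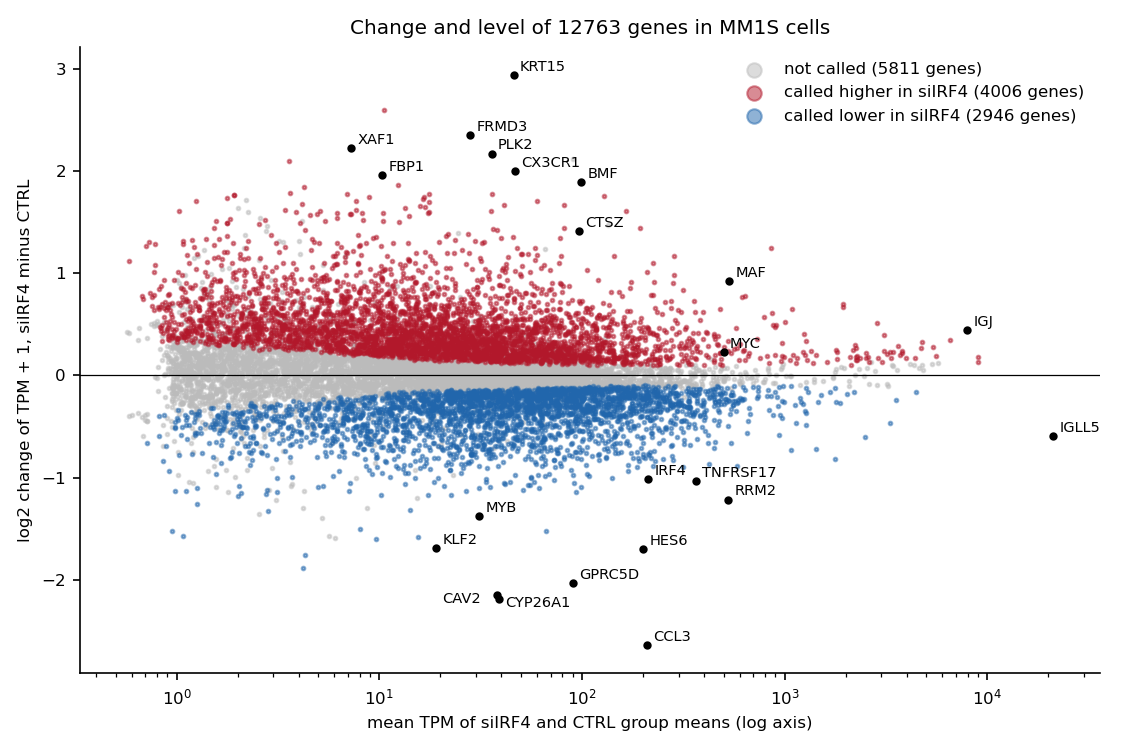
Log2 change of TPM + 1 (siIRF4 minus CTRL, vertical axis) against the mean TPM of both groups (horizontal log axis) for the 12763 genes tested in MM1S cells, with 4006 genes called higher in red, 2946 called lower in blue and the rest in grey. KRT15 is the highest at 2.93 and CCL3 the lowest at -2.63.

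Among genes without overlap of the groups and with at least 5 TPM in the higher group, the 12 largest rises were those of KRT15, FRMD3, XAF1, PLK2, GBP4, CX3CR1, FBP1, BMF, SYTL2, LINGO3, PVALB and PCED1B. None of these 12 genes, nor of the 12 with the largest falls, lost its call in the alternative analyses in which it was tested. KRT15, a basal epithelial keratin, had 83.3, 85.6 and 77.8 TPM in the siIRF4 libraries, against 8.48, 12.2 and 9.34 TPM in the CTRL libraries, a change of 2.93 ± 0.12 (adjusted p = 1.55e-06 in limma). The other keratins of the keratinocyte marker list were not called, as described at the end. FRMD3, which encodes a FERM domain protein, averaged 47.5 ± 3.70 TPM in siIRF4 and 8.60 ± 1.74 TPM in CTRL and rose by 2.35 ± 0.13.

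Among these rises were genes of cell death and of the interferon response. BMF encodes a BH3-only protein that binds and blocks the survival members of the BCL2 family. It had 163, 155 and 151 TPM in the siIRF4 libraries, against 39.7, 44.3 and 40.8 TPM in the CTRL libraries, and rose by 1.89 ± 0.052 (adjusted p = 2.44e-09 in limma). XAF1, an interferon-induced antagonist of the caspase inhibitor XIAP, had 12.5, 12.5 and 12.8 TPM in siIRF4, against 1.86, 2.19 and 1.73 TPM in CTRL, and rose by 2.22 ± 0.088. GBP4, an interferon-induced guanylate-binding protein, averaged 6.42 ± 0.454 TPM in siIRF4 and 0.729 ± 0.108 TPM in CTRL. It was under 1 TPM in each CTRL library and so passed the filter through the siIRF4 libraries only.

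The other large rises had mixed functions. PLK2, a polo-like kinase and p53 target, had 60.98, 60.8 and 55.9 TPM in siIRF4, against 13.4, 11.5 and 12.3 TPM in CTRL, and rose by 2.17 ± 0.067. CX3CR1, the receptor of the chemokine fractalkine and a known MAF target in myeloma, had 75.9, 75.7 and 73.6 TPM in siIRF4, against 17.5, 19.2 and 17.6 TPM in CTRL, and rose by 1.995 ± 0.053. FBP1, a gluconeogenic phosphatase that works against glycolysis, averaged 17.1 ± 1.47 TPM in siIRF4 and 3.65 ± 0.330 TPM in CTRL. SYTL2, a Rab27 effector of vesicle transport, LINGO3, a leucine-rich repeat membrane protein, PVALB, the calcium-binding protein parvalbumin, and PCED1B rose by between 1.77 and 1.86.

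By the same choice, the 12 largest falls were those of CCL3, CYP26A1, CAV2, GPRC5D, HRASLS2, HES6, KLF2, SMOC1, CAV1, ST8SIA2, MYB and UNC13C. CCL3, a chemokine that myeloma cells secrete and that stimulates osteoclasts, had 66.6, 47.97 and 58.1 TPM in the siIRF4 libraries, against 367, 324 and 388 TPM in the CTRL libraries. It fell by 2.63 ± 0.14 (adjusted p = 8.26e-05 in limma) to 0.160 of the CTRL mean, and its reads may be shared with the near-identical copies CCL3L1 and CCL3L3. GPRC5D, an orphan receptor of plasma cells that is a target of myeloma immunotherapy, had 37.7, 32.4 and 34.5 TPM in siIRF4, against 164, 124 and 149.7 TPM in CTRL, and fell by 2.03 ± 0.11.

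The caveolin genes fell together. CAV2 had 14.6, 12.6 and 12.9 TPM in siIRF4, against 66.8, 58.5 and 62.3 TPM in CTRL, and fell by 2.15 ± 0.070. CAV1, the main coat protein of caveolae, averaged 33.9 ± 2.70 TPM in siIRF4 and 98.9 ± 4.79 TPM in CTRL and fell by 1.52 ± 0.062. Both groups were apart in each, which was a condition of their choice. The other members of the caveolin and cavin list that were tested, PTRF and EHD2, averaged under 5 TPM in both groups and were not called. PTRF and EHD2 were named after their values were seen.

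Several transcription factors and differentiation genes were among the largest falls. CYP26A1, which degrades retinoic acid, had 15.5, 12.1 and 12.96 TPM in siIRF4, against 63.9, 62.3 and 67.8 TPM in CTRL, and fell by 2.18 ± 0.081. HES6, a relative of the Notch-induced HES repressors, had 99.3, 85.00 and 98.6 TPM in siIRF4, against 308, 279 and 336 TPM in CTRL, and fell by 1.69 ± 0.085. KLF2, a Kruppel-like factor reported to sustain IRF4 expression in myeloma, had 10.3, 7.58 and 7.66 TPM in siIRF4, against 30.7, 23.04 and 35.5 TPM in CTRL, and fell by 1.69 ± 0.20. MYB, a proto-oncogene of blood progenitors, averaged 16.9 ± 0.388 TPM in siIRF4 and 45.2 ± 1.79 TPM in CTRL and fell by 1.37 ± 0.055. SMOC1, a secreted calcium-binding protein, ST8SIA2, which makes polysialic acid, HRASLS2, a phospholipid-modifying enzyme, and UNC13C, a protein of synaptic vesicle priming, fell by between 1.31 and 1.76.

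**Figure D2:**
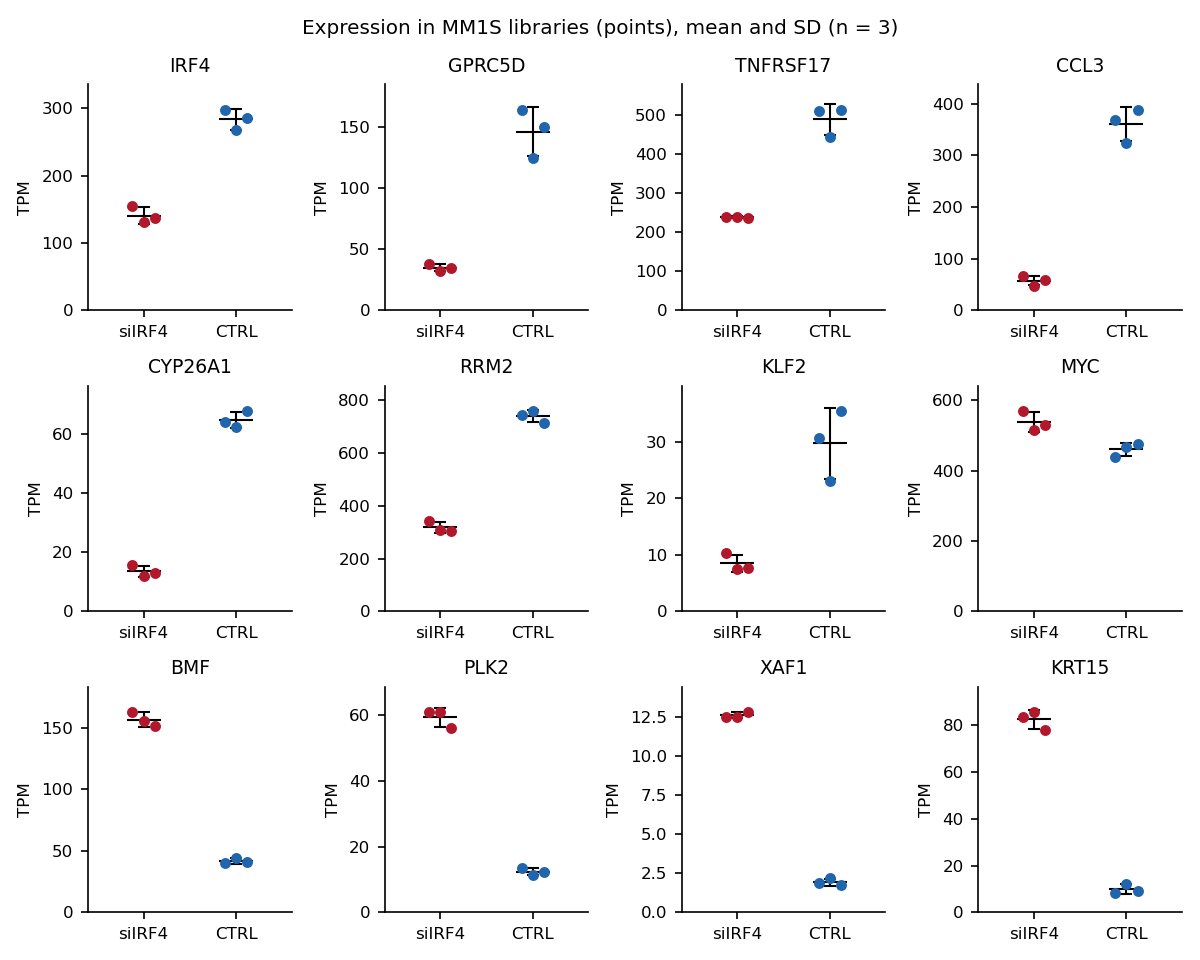
TPM of 12 genes in the 3 siIRF4 (red) and 3 CTRL (blue) MM1S libraries, each point a library, with the mean and SD of each group as a bar and whiskers. In each panel the siIRF4 and CTRL libraries are apart, as in 61.8% of all genes tested. IRF4 is at 140.5 TPM in siIRF4 and 283 TPM in CTRL and BMF at 157 TPM in siIRF4 and 41.6 TPM in CTRL.

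Of 24 plasma cell genes tested, 6 rose and 12 fell, with a median of -0.11, against 31.4% and 23.1% called higher and lower over all genes and a median of 0.05. Apart from GPRC5D and IRF4, the largest falls were of surface receptors. TNFRSF17, the survival receptor BCMA, had 239, 241 and 237 TPM in siIRF4, against 510.5, 444 and 515 TPM in CTRL, and fell by 1.03 ± 0.053 (adjusted p = 9.7e-08 in limma). SLAMF7, the target of elotuzumab, had 318, 296 and 289 TPM in siIRF4, against 574, 524 and 544 TPM in CTRL, and fell by 0.86 ± 0.047. In these bulk libraries fewer cells of a kind and less RNA per cell cannot be told apart.

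Factors of plasma cell identity fell by less. POU2AF1, a coactivator of octamer-binding factors, averaged 214 ± 16.5 TPM in siIRF4 and 307 ± 11.1 TPM in CTRL and fell by 0.52 ± 0.054. PRDM1, the repressor that closes the B cell programme, averaged 91.03 ± 6.30 TPM in siIRF4 and 125 ± 4.92 TPM in CTRL and fell by 0.45 ± 0.054. XBP1, which builds the secretory apparatus, fell by 0.12 ± 0.033, CD38 by 0.30 ± 0.054, SDC1 by 0.23 ± 0.045 and FKBP11, a folding enzyme of the secretory pathway, by 0.42 ± 0.043. The elongation factor ELL2, at -0.23 ± 0.069, was not called without siIRF4 replicate 3 or without CTRL replicate 1. TNFRSF13B, the receptor TACI, averaged 157 ± 8.89 TPM in siIRF4 and 203 ± 3.99 TPM in CTRL.

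The members that rose were IKZF3, DERL3, IGJ, CD27, LAX1 and PIM2. CD27 was under 1 TPM in every CTRL library, passed the filter through the siIRF4 libraries only and was not called without CTRL replicate 1 or 3, LAX1 without CTRL replicate 2 or under median-of-ratios scaling, and PIM2 under that scaling. IKZF3, the lymphoid factor Aiolos that lenalidomide degrades, had 75.8, 71.9 and 76.9 TPM in siIRF4, against 42.3, 39.2 and 39.9 TPM in CTRL, and rose by 0.87 ± 0.050. Its relative IKZF1 averaged 49.7 ± 2.38 TPM in siIRF4 and 46.2 ± 1.46 TPM in CTRL and was not called (adjusted p = 0.121 in limma). IGJ, the joining chain of secreted IgA and IgM, averaged 9144 ± 372 TPM in siIRF4 and 6716 ± 385 TPM in CTRL and rose by 0.45 ± 0.046. The lambda-like gene IGLL5 overlaps the immunoglobulin lambda constant region, so that its reads may come from the light chain; it was the most abundant gene and averaged 16870 ± 439 TPM in siIRF4 and 25410 ± 1169 TPM in CTRL, a fall of 0.59 ± 0.040. IGJ, IGLL5, SDC1 and TNFRSF13B were not called when all 24 libraries shared 1 estimate of the spread. DERL3, a factor of ER-associated degradation, rose by 0.36 ± 0.053. MZB1, SEC11C, SSR4, CREB3L2 and TXNDC5, which serve secretion, had changes of between -0.10 and 0.08 and were not called. TXNDC5 may share reads with a read-through transcript of its neighbour and is uncertain.

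Genes that earlier work linked to IRF4 in myeloma gave a similar picture. Of 25 tested, 9 rose and 13 fell, with a median of -0.12, against 31.4% and 23.1% called higher and lower over all genes. Besides CCL3, KLF2, MYB and TNFRSF17, SUB1, a transcription coactivator, averaged 353 ± 4.84 TPM in siIRF4 and 554 ± 39.03 TPM in CTRL and fell by 0.65 ± 0.048. CDK6, a kinase of the G1 phase, fell by 0.62 ± 0.067, SCD, the desaturase of fatty acid synthesis, by 0.59 ± 0.11, SQLE, which oxidises squalene, by 0.47 ± 0.062 and HK2, a hexokinase, by 0.28 ± 0.060. STAG2 and CANX were not called, at -0.01 and -0.03. BCL6, the factor of germinal centre B cells, was under 1 TPM in every CTRL library and passed the filter through the siIRF4 libraries only; it averaged 2.01 ± 0.289 TPM in siIRF4 and 0.678 ± 0.110 TPM in CTRL and rose by 0.84 ± 0.13. ZEB1, a zinc finger repressor, rose by 0.62 ± 0.091.

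MYC, which earlier work placed downstream of IRF4 in myeloma, rose. It had 571, 517 and 529 TPM in siIRF4, against 440.1, 467 and 475 TPM in CTRL, and rose by 0.23 ± 0.046 (adjusted p = 0.00156 in limma), with no overlap of the groups. Of 14 genes of the MYC and MAX network, 6 rose and 2 fell, with a median of 0.17, beside 31.4% and 23.1% over all genes. MXD4, a MAX partner that opposes MYC, had 121, 117 and 120.1 TPM in siIRF4, against 40.7, 42.7 and 46.7 TPM in CTRL, and rose by 1.44 ± 0.054. MXD1 rose by 0.49 ± 0.080, MXI1 by 0.33 ± 0.059, MAX, the shared partner, by 0.31 ± 0.054 and PVT1, the non-coding neighbour of MYC, by 0.47 ± 0.070. MXD3 fell by 0.35 ± 0.056. MYCN averaged 0.902 ± 0.292 TPM in siIRF4 and 1.70 ± 0.331 TPM in CTRL, and its fall was not called without siIRF4 replicate 1, CTRL replicate 1 or CTRL replicate 3.

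B cell genes rose in 10 and fell in 2 of the 15 tested, with a median of 0.28, while the other 10 of the 25 listed, PAX5 and MS4A1 among them, did not pass the filter. BCL6, 1 of those that rose, passed it through the siIRF4 libraries only, as given above. SPI1, the ETS factor PU.1 that pairs with IRF4 on composite DNA elements, had 53.8, 55.7 and 52.8 TPM in siIRF4, against 15.2, 17.96 and 18.3 TPM in CTRL, and rose by 1.604 ± 0.069 (adjusted p = 3.17e-08 in limma). ID3, an inhibitor of E proteins, averaged 60.6 ± 3.17 TPM in siIRF4 and 33.8 ± 3.28 TPM in CTRL and rose by 0.82 ± 0.069, while TCF3, an E protein, averaged 179 ± 8.52 TPM in siIRF4 and 238 ± 10.3 TPM in CTRL and fell by 0.41 ± 0.047. CD79B, a signalling chain of the B cell receptor, rose by 0.50 ± 0.044, and the kinase SYK fell by 0.31 ± 0.051. MHC class II genes rose in 0 and fell in 4 of 12 tested. CIITA, their master activator, averaged 4.58 ± 0.815 TPM in siIRF4 and 7.35 ± 0.267 TPM in CTRL and fell by 0.59 ± 0.10, and HLA-DRA fell by 0.50 ± 0.053.

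Cell division genes fell without exception among those listed. Of 56 genes of DNA replication and the G1/S transition, 0 rose and 56 fell, with changes from -1.21 to -0.53 and a median of -0.80. Of 50 genes of mitosis and the G2/M phase, 0 rose and 50 fell, with changes from -1.05 to -0.35 and a median of -0.60. These counts were the same in every alternative analysis of the 6 libraries. Many genes of the first list are bound by E2F factors, and many of the second carry a cell cycle homology region (CHR), a short promoter element read by the MuvB complexes. To show these elements, windows of 4 promoters are given with 1 match of the motif or its reverse complement in capitals in each (the MKI67 promoter holds 2 CHR matches, 1 of them in capitals), 5′ to 3′ on the strand of the gene, from RefSeq on GRCh38.p14. MKI67, PLK1 and DTL were chosen after their values were seen.
DTL (chr1:212035714-212035747, plus strand): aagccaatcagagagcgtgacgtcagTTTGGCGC
CKS1B (chr1:154974625-154974680, plus strand): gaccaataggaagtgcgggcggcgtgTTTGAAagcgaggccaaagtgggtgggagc
MKI67 (chr10:128126424-128126478, minus strand): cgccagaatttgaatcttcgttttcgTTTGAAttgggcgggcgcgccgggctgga
PLK1 (chr16:23678834-23678888, plus strand): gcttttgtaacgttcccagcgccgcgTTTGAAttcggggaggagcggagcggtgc

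The E2F motif was searched as TTTGGCGC and the CHR as TTTGAA, on both strands, from 250 bases before to 50 after each start. TTTGAA stood in 30 of the 42 promoters matched for mitosis and G2/M genes (71.4%). Its share was 15.4% of all 27305 promoters of the RefSeq table and 9.67% of the 9133 promoters matched to genes tested. TTTGGCGC stood in 10 of the 46 promoters matched for replication and G1/S genes (21.7%). Its share was 0.659% of all promoters and 1.2% of those matched to genes tested. These are matches of letters, not measured sites.

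Genes of nucleotide supply and origin firing had the smallest p-values of the replication list. RRM2, the regulated subunit of ribonucleotide reductase, had 341, 309 and 305 TPM in siIRF4, against 742, 759 and 713 TPM in CTRL, and fell by 1.21 ± 0.048 (adjusted p = 2.3e-08 in limma). The 300-base promoters of RRM2, RRM1 and CDC45 held 0 matches of TTTGGCGC. RRM1, the partner of RRM2, averaged 157 ± 0.473 TPM in siIRF4 and 268 ± 3.75 TPM in CTRL. CDC45, part of the replicative helicase, had 33.9, 36.8 and 35.2 TPM in siIRF4, against 74.3, 76.4 and 74.8 TPM in CTRL, and fell by 1.07 ± 0.049. DTL, a substrate receptor of the CRL4 ubiquitin ligase with the E2F motif shown above, fell by 1.10 ± 0.052. No library of siIRF4 reached a CTRL value in these genes, which were chosen by their p-values or after their values were seen. Of all genes tested, 61.8% had no overlap of the groups.

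CDC25A, CKS1B and MAD2L1 had the smallest p-values of the mitosis list. CDC25A, the phosphatase that activates cyclin-dependent kinases, had 27.00, 26.3 and 26.5 TPM in siIRF4, against 57.99, 56.98 and 53.97 TPM in CTRL, and fell by 1.05 ± 0.050. Its promoter held 0 matches of TTTGAA. CKS1B, a kinase subunit on the arm gained in many myelomas, averaged 181 ± 1.995 TPM in siIRF4 and 319 ± 12.6 TPM in CTRL and fell by 0.81 ± 0.040. MAD2L1, of the spindle checkpoint, fell by 0.78 ± 0.047, MKI67, the proliferation antigen, by 0.76 ± 0.068 and PLK1, a mitotic kinase, by 0.62 ± 0.050. These genes fell in the same libraries as the G1/S genes, and the share of cells in each phase was not measured.

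Regulators of entry into the cycle moved less uniformly. Of 14 genes of cyclin D, CDK4/6 and their inhibitors, 3 rose and 7 fell, with a median of -0.21. CCND2, the cyclin D of MAF-translocated myeloma, had 111, 96.8 and 115 TPM in siIRF4, against 196, 167 and 185 TPM in CTRL, and fell by 0.76 ± 0.080. CCND3 fell by 0.72 ± 0.061 and CDK4 by 0.36 ± 0.037. RBL2, the pocket protein p130 of resting cells, averaged 92.9 ± 5.44 TPM in siIRF4 and 66.9 ± 1.75 TPM in CTRL and rose by 0.47 ± 0.051, whereas RBL1, the pocket protein p107, averaged 18.2 ± 0.753 TPM in siIRF4 and 28.5 ± 0.743 TPM in CTRL and fell by 0.62 ± 0.057. CDKN1C, a CDK inhibitor, rose by 0.38 ± 0.076. Among 25 histone genes 7 rose and 5 fell, against 31.4% and 23.1% over all genes. Their median, -0.10, took the other sign in 1 alternative analysis, and 1 of the 25 passed the filter through the siIRF4 libraries only. H2AFZ, a replacement histone, fell by 0.72 ± 0.033 and H2AFX by 0.61 ± 0.052.

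**Figure D3:**
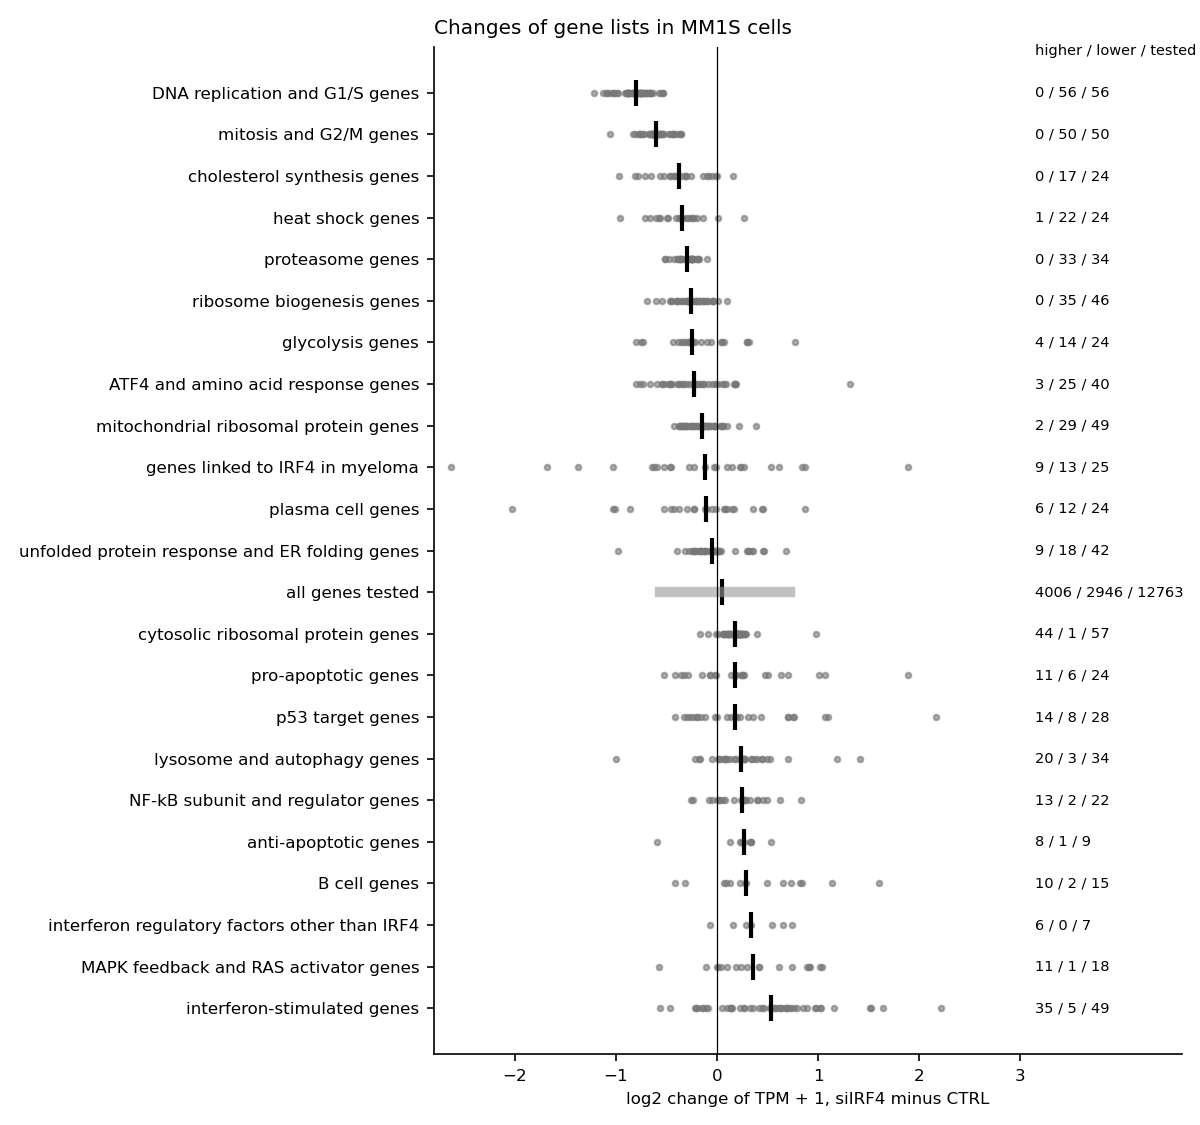
Log2 change of TPM + 1 (siIRF4 minus CTRL) of each tested member (points) of 22 gene lists in MM1S cells, with the median as a black bar and the counts of members called higher, called lower and tested at the right. For all genes the grey bar runs from the 5th to the 95th percentile. All replication and mitosis genes lie below 0 and most interferon-stimulated genes above it.

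Interferon-stimulated genes mostly rose. Of 49 tested, 35 rose and 5 fell, with a median of 0.53, against 31.4% and 23.1% over all genes, and 30 to 35 rose over the alternative analyses. Many such genes carry an interferon-stimulated response element, whose core GAAANNGAA is bound by interferon regulatory factors. Windows around this core in 4 promoters are shown, for 2 members that rose and 2 that fell, with 1 match of the motif or its reverse complement in capitals in each, 5′ to 3′ on the strand of the gene, from RefSeq on GRCh38.p14. The 300 bases searched held 3 matches each in IFI6, ISG15 and HERC5 and 2 in BST2, and where further matches fall in a window they stay in lower case. ISG15 and IFIT3 were chosen after their values were seen.
IFI6 (chr1:27672251-27672311, minus strand): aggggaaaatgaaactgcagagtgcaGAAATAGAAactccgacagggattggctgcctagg
ISG15 (chr1:1013370-1013430, plus strand): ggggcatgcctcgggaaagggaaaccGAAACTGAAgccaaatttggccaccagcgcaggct
BST2 (chr19:17405720-17405780, minus strand): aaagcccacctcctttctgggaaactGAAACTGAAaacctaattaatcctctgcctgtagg
HERC5 (chr4:88457020-88457080, plus strand): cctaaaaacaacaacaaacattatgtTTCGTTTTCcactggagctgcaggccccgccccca

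The core stood in 27 of the 40 promoters matched for tested interferon-stimulated genes (67.5%), both strands searched. Its share was 8.29% of all 27305 promoters and 6.56% of the 9133 promoters matched to genes tested. The core stood in 18 of the 29 matched promoters of members that rose (62.1%) and in 9 of the 11 of members that did not rise (81.8%). The related core GGAANNGAA of ETS and IRF pairs, which differs from it in its second letter, stood in 11 of the 40 promoters (27.5%). Its share was 7.84% of all promoters and 7.75% of those matched to genes tested. Of the 12 genes with the largest falls 10 matched a promoter, and those of CCL3, CYP26A1 and GPRC5D each held 1 match of GAAANNGAA. Of the 12 with the largest rises 9 matched a promoter, and that of GBP4 held 1. Among all genes that rose by 1 or more, GAAANNGAA stood in 20 of 148 matched promoters (13.5%). Among all that fell by 1 or more it stood in 4 of 43 (9.3%), against 6.56% of the promoters matched to genes tested. These counts were not tested, and the windows of CCL3 and GPRC5D are shown as examples from genes that myeloma cells are known for.
CCL3 (chr17:36090166-36090226, minus strand): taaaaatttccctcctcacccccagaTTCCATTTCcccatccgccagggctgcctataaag
GPRC5D (chr12:12952314-12952374, minus strand): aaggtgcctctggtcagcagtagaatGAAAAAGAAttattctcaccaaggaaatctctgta

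IFI6, an interferon-induced mitochondrial protein, had 57.2, 60.2 and 61.8 TPM in siIRF4, against 24.97, 26.8 and 27.1 TPM in CTRL, and rose by 1.15 ± 0.054 (adjusted p = 4.74e-08 in limma). MX1, an antiviral GTPase, had 50.4, 52.1 and 53.1 TPM in siIRF4, against 25.8, 26.01 and 26.1 TPM in CTRL, and rose by 0.97 ± 0.049. ISG15, a ubiquitin-like protein, rose by 0.89 ± 0.078 and IFIT3, an RNA-binding partner protein, by 0.98 ± 0.10. The siIRF4 libraries lay above the CTRL libraries in all of them, but these genes were chosen by their p-values or after their values were seen. Over all genes tested, 61.8% had no overlap of the groups. In the opposite direction, BST2, the antiviral tetherin, had 788, 791 and 821 TPM in siIRF4, against 909, 928 and 926 TPM in CTRL, and fell by 0.20 ± 0.035. HERC5, the ligase that attaches ISG15, fell by 0.47 ± 0.057 and SAMD9L, an antiviral and antiproliferative protein, by 0.56 ± 0.074.

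The other interferon regulatory factors rose in 6 of 7 tested. IRF9, the DNA-binding part of the interferon-induced complex ISGF3, had 27.8, 26.8 and 28.1 TPM in siIRF4, against 16.6, 15.1 and 16.4 TPM in CTRL, and rose by 0.75 ± 0.059. IRF7 rose by 0.66 ± 0.081, IRF1 by 0.54 ± 0.045, IRF5 by 0.34 ± 0.058 and IRF3 by 0.29 ± 0.052. IRF2 rose by 0.16 ± 0.044 but was not called under median-of-ratios scaling or without CTRL replicate 2. IRF8, the nearest relative of IRF4, had 9.71, 8.77 and 9.58 TPM in siIRF4, against 10.02, 10.4 and 9.12 TPM in CTRL, with overlapping groups and adjusted p = 0.473 in limma.

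Receptors and sensors upstream of these genes moved less uniformly. Of 20 interferon receptor and STAT genes 12 rose and 2 fell, with a median of 0.22. STAT6, the factor of interleukin-4 signalling, averaged 57.03 ± 4.26 TPM in siIRF4 and 31.8 ± 0.318 TPM in CTRL and rose by 0.82 ± 0.058. IFNGR1, a chain of the interferon gamma receptor, rose by 0.76 ± 0.063 and JAK1 by 0.49 ± 0.046, while IFNAR2, a chain of the type I interferon receptor, fell by 0.37 ± 0.039 and SOCS2, a feedback inhibitor, by 0.50 ± 0.070. Of 18 RNA and DNA sensor genes 9 rose and 3 fell, and 5 fell under median-of-ratios scaling. Among these sensors, 1 passed the filter through the CTRL libraries only. DDX58, the RNA sensor RIG-I, averaged 7.48 ± 0.218 TPM in siIRF4 and 4.12 ± 0.109 TPM in CTRL and rose by 0.73 ± 0.078, and TLR9, an endosomal DNA sensor, passed the filter through the siIRF4 libraries and rose by 1.11 ± 0.12. MB21D1, the cytosolic DNA sensor cGAS, averaged 26.6 ± 1.62 TPM in siIRF4 and 44.4 ± 1.73 TPM in CTRL and fell by 0.72 ± 0.059. MHC class I and antigen processing genes rose in 6 and fell in 3 of 19 (7 fell under median-of-ratios scaling), against 31.4% and 23.1% over all genes. Among them were B2M with a rise of 0.32 ± 0.041 and PSME2, an activator of the proteasome, with a fall of 0.28 ± 0.038.

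Of 24 pro-apoptotic genes 11 rose and 6 fell, against 31.4% and 23.1% called higher and lower over all genes, with a median of 0.18. After BMF, the largest rise with more than 5 TPM was of BBC3, the BH3-only protein PUMA, which had 22.2, 23.2 and 24.2 TPM in siIRF4, against 10.8, 10.5 and 10.4 TPM in CTRL, and rose by 1.07 ± 0.061 (adjusted p = 1.68e-07 in limma). BCL2L11, the BH3-only protein BIM, rose by 0.27 ± 0.045, and HRK, which passed the filter through the siIRF4 libraries only, averaged 2.16 ± 0.402 TPM in siIRF4 and 0.592 ± 0.390 TPM in CTRL. PMAIP1, the BH3-only protein NOXA, averaged 6.72 ± 0.245 TPM in siIRF4 and 9.34 ± 0.738 TPM in CTRL and fell by 0.42 ± 0.079.

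Genes of the TRAIL receptors and initiator caspases rose. TNFRSF10B and TNFRSF10A, the receptors of the ligand TRAIL, rose by 0.70 ± 0.056 and 0.48 ± 0.045, and TNFSF10, TRAIL itself, by 0.64 ± 0.072. CASP9, CASP8 and CASP10, initiator caspases, rose by 0.50 ± 0.084, 0.26 ± 0.047 and 0.24 ± 0.048. CYCS, cytochrome c, averaged 169 ± 2.13 TPM in siIRF4 and 243 ± 9.56 TPM in CTRL and fell by 0.52 ± 0.041, and the caspase CASP6 fell by 0.35 ± 0.051. BAX rose by 0.18 ± 0.049 and BAK1 fell by 0.15 ± 0.040. FAS, FADD, BID, BAD, BIK, APAF1 and DIABLO were not called.

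Survival genes rose in 8 of 9 tested, with a median of 0.27. CFLAR, the inhibitor of caspase 8 activation, averaged 32.4 ± 1.93 TPM in siIRF4 and 22.1 ± 0.228 TPM in CTRL and rose by 0.53 ± 0.058. MCL1, on which myeloma cells often depend, had 386, 365 and 358 TPM in siIRF4, against 298, 289.7 and 287 TPM in CTRL, and rose by 0.34 ± 0.040. XIAP rose by 0.34 ± 0.071, BIRC2 by 0.33 ± 0.068, BCL2 by 0.27 ± 0.057 and BIRC3 by 0.24 ± 0.055. BCL2L1, at 0.13 ± 0.034, was not called under median-of-ratios scaling, and BIRC6, at 0.23 ± 0.080, was not called without siIRF4 replicate 1, CTRL replicate 2 or CTRL replicate 3. BIRC5, survivin, which is also a mitotic gene, fell by 0.59 ± 0.040.

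Of 28 p53 targets tested, 14 rose and 8 fell, with a median of 0.18, beside the same 31.4% and 23.1% over all genes. Besides PLK2 and BBC3, BTG2, an antiproliferative gene, had 787, 769.5 and 766 TPM in siIRF4, against 459, 464 and 441 TPM in CTRL, and rose by 0.77 ± 0.036 (adjusted p = 4.69e-08 in limma). MDM2, the ligase of p53, averaged 89.9 ± 4.74 TPM in siIRF4 and 113 ± 6.32 TPM in CTRL and fell by 0.32 ± 0.054, and GADD45A fell by 0.30 ± 0.055.

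Of 24 cholesterol synthesis genes 0 rose and 17 fell, with a median of -0.38. EBP, a sterol isomerase, had 146, 148 and 149 TPM in siIRF4, against 265, 248 and 266 TPM in CTRL, and fell by 0.81 ± 0.041, and FDPS, which makes farnesyl diphosphate, fell by 0.47 ± 0.038. Of 18 fatty acid synthesis genes 4 rose and 9 fell, with 5 falling without siIRF4 replicate 2 and 4 without siIRF4 replicate 3. FADS1, a fatty acid desaturase, averaged 12.7 ± 1.26 TPM in siIRF4 and 26.3 ± 1.64 TPM in CTRL and fell by 0.997 ± 0.077, whereas ACSS2, which makes acetyl-CoA from acetate, averaged 21.7 ± 1.57 TPM in siIRF4 and 12.5 ± 0.729 TPM in CTRL and rose by 0.75 ± 0.071.

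Glycolysis genes fell in 14 and rose in 4 of 24, with a median of -0.245. LDHA, the lactate dehydrogenase of glycolytic cells, had 806, 828 and 784 TPM in siIRF4, against 1355, 1359 and 1289 TPM in CTRL, and fell by 0.73 ± 0.038. PDK1, which keeps pyruvate from the mitochondria, fell by 0.80 ± 0.055 and the enolase ENO2 by 0.75 ± 0.053, while SLC2A3, a glucose transporter, rose by 0.77 ± 0.077. Purine enzymes fell in 12 and rose in 2 of 19. AMPD1, an AMP deaminase, averaged 8.88 ± 1.27 TPM in siIRF4 and 18.1 ± 0.509 TPM in CTRL and fell by 0.96 ± 0.090, and its relative AMPD3 averaged 19.6 ± 0.965 TPM in siIRF4 and 8.49 ± 0.404 TPM in CTRL and rose by 1.12 ± 0.068. Of 50 nuclear genes of the respiratory chain 5 rose and 21 fell, with a median of -0.11 and changes from -0.39 to 0.25; under median-of-ratios scaling 3 rose.

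Proteasome and heat shock genes fell in nearly all members. Of 34 proteasome genes 0 rose and 33 fell, with a median of -0.29 and changes from -0.51 to -0.10. PSMC3, an ATPase of the regulatory particle, averaged 212 ± 6.92 TPM in siIRF4 and 301 ± 2.11 TPM in CTRL. Of 24 heat shock genes 1 rose and 22 fell, with a median of -0.35. HSP90AA1, the inducible cytosolic HSP90, had 341, 347 and 333 TPM in siIRF4, against 584, 543 and 544 TPM in CTRL, and fell by 0.71 ± 0.040 (adjusted p = 1.49e-07 in limma). HSPA8, the constitutive HSP70, fell by 0.60 ± 0.037 and its cochaperone DNAJB1 by 0.66 ± 0.047, while HSF1, the factor that activates these genes, rose by 0.26 ± 0.058.

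The unfolded protein response list was mixed. Of 42 genes 9 rose and 18 fell, with a median of -0.05, beside 31.4% and 23.1% over all genes. SEL1L, the adaptor of an ER-associated degradation ligase, had 65.99, 58.5 and 58.4 TPM in siIRF4, against 126, 118 and 119 TPM in CTRL, and fell by 0.97 ± 0.056. EDEM1, a mannosidase-like protein of the same pathway, averaged 279 ± 9.30 TPM in siIRF4 and 201 ± 3.74 TPM in CTRL and rose by 0.47 ± 0.039, and ERN1, the stress sensor IRE1, rose by 0.45 ± 0.060. MANF and PDIA6, ER luminal proteins, fell by 0.31 ± 0.037 and 0.27 ± 0.036. Of 40 ATF4 and amino acid response genes 3 rose and 25 fell, with a median of -0.22. SLC1A5, a glutamine carrier, averaged 146 ± 10.3 TPM in siIRF4 and 255 ± 2.41 TPM in CTRL and fell by 0.80 ± 0.050, PSAT1, of serine synthesis, fell by 0.74 ± 0.059 and AARS, the alanyl-tRNA synthetase, by 0.54 ± 0.041.

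Ribosome biogenesis genes and ribosomal protein genes went in different directions. Of 46 biogenesis genes 0 rose and 35 fell, with a median of -0.26, among them TCOF1, a factor of ribosomal RNA transcription, which fell by 0.69 ± 0.054, and PA2G4, which fell by 0.54 ± 0.035. Of 57 cytosolic ribosomal protein genes 44 rose and 1 fell, with a median of 0.18, and under median-of-ratios scaling 22 rose and 1 fell. RPL13A had 350.3, 408 and 381 TPM in siIRF4, against 200.2, 187 and 188 TPM in CTRL, and rose by 0.98 ± 0.055, RPL3 rose by 0.40 ± 0.033, and RPS28 fell by 0.16 ± 0.042. The elongation factors EEF1A1 and EEF2 averaged 7361 ± 160.5 and 3346 ± 105 TPM in siIRF4, against 5770 ± 216 and 2342 ± 72.9 TPM in CTRL, and both rose. Genes of this kind have many processed copies in the genome, and how the counting treated reads shared with them is not given in the sources used here. Mitochondrial ribosomal protein genes fell in 29 and rose in 2 of 49, with MRPL37 at -0.42 ± 0.037.

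Lysosome and autophagy genes rose in 20 and fell in 3 of 34, with a median of 0.24, against 31.4% and 23.1% over all genes. CTSZ and CTSS are lysosomal cysteine proteases. CTSZ had 136, 141 and 148 TPM in siIRF4, against 51.2, 51.7 and 54.8 TPM in CTRL, and rose by 1.41 ± 0.048 (adjusted p = 8.67e-09 in limma). CTSS averaged 70.7 ± 3.09 TPM in siIRF4 and 30.4 ± 1.58 TPM in CTRL and rose by 1.19 ± 0.056, and PSAP, the precursor of the saposins, rose by 0.49 ± 0.041. Against the list, GLA, the alpha-galactosidase, had 38.9, 36.3 and 35.5 TPM in siIRF4, against 75.6, 75.1 and 73.8 TPM in CTRL, and fell by 1.002 ± 0.050.

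Of 18 MAPK feedback and RAS genes 11 rose and 1 fell, with a median of 0.35, against 31.4% and 23.1% over all genes. RASA1, a GTPase activator that switches RAS off, had 147, 143 and 136 TPM in siIRF4, against 70.03, 67.3 and 68.8 TPM in CTRL, and rose by 1.03 ± 0.044. DUSP5, a nuclear phosphatase of ERK, rose by 0.62 ± 0.036 and PHLDA1 by 1.02 ± 0.047, while DUSP4 fell by 0.57 ± 0.062. Of 22 NF-kB subunit and regulator genes 13 rose and 2 fell (1 without siIRF4 replicate 2, CTRL replicate 2 or CTRL replicate 3), with a median of 0.25, including the inhibitors CYLD, TNFAIP3 and NFKBIA, which rose by 0.49 ± 0.050, 0.40 ± 0.049 and 0.45 ± 0.062. NF-kB targets rose in 11 and fell in 1 of 20, ICAM1 rising by 0.77 ± 0.073 and IL2RG by 0.65 ± 0.039, and the single fall was of CCL3. A second target fell without siIRF4 replicate 2, CTRL replicate 2 or CTRL replicate 3, and 3 fell under median-of-ratios scaling. Each of these NF-kB lists held 1 member that passed the filter through the siIRF4 libraries only.

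Among AP-1 and immediate early genes 6 rose and 3 fell of 16, and JUN had 11.3, 9.58 and 10.03 TPM in siIRF4, against 21.99, 27.1 and 24.03 TPM in CTRL, and fell by 1.16 ± 0.086. Of 13 glucocorticoid response genes 8 rose and 0 fell, with a median of 0.25, and 1 fell without siIRF4 replicate 1 or under median-of-ratios scaling. DDIT4, an inhibitor of mTORC1, had 43.6, 41.6 and 42.9 TPM in siIRF4, against 16.9, 16.4 and 16.5 TPM in CTRL, and rose by 1.31 ± 0.052. SGK1, a kinase, rose by 1.13 ± 0.056 and TSC22D3, the leucine zipper protein GILZ, by 0.91 ± 0.056. Of 11 Notch pathway genes 5 rose and 4 fell, with MAML2, a coactivator, at 0.94 ± 0.057, and of 13 Kruppel-like factors 7 rose and 2 fell, with KLF6 at 0.57 ± 0.043 and KLF5 at 0.74 ± 0.10. Among the Notch pathway genes, 1 passed the filter through the CTRL libraries only.

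MAF, the driver oncogene of the line, rose. It had 723, 679 and 687 TPM in siIRF4, against 362, 357 and 384 TPM in CTRL, a change of 0.92 ± 0.042 (adjusted p = 4e-08 in limma). Of 11 genes of the MAF list 7 rose and 2 fell, with a median of 0.15. CX3CR1 rose, as given above, and DEPTOR, an inhibitor of mTOR that is high in such myelomas, rose by 0.46 ± 0.041, whereas CCND2 and the chemokine receptor CCR1 fell, CCR1 not in the fit of all 24 libraries. ITGB7, an integrin chain of these myelomas and the second most abundant gene, averaged 9449 ± 341 TPM in siIRF4 and 8638 ± 383 TPM in CTRL; its rise of 0.13 ± 0.041 was not called under median-of-ratios scaling, in the fit of all 24 libraries or without siIRF4 replicate 1, CTRL replicate 1 or CTRL replicate 2.

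Of 23 myeloma surface antigen genes 6 rose and 9 fell, with a median of -0.05, while 31.4% of all genes rose and 23.1% fell. LILRB4, an inhibitory receptor, had 17.97, 16.8 and 15.95 TPM in siIRF4, against 35.3, 31.5 and 34.3 TPM in CTRL, and fell by 0.96 ± 0.065. PVRIG, an inhibitory receptor for nectin ligands, averaged 30.5 ± 2.63 TPM in siIRF4 and 16.7 ± 0.892 TPM in CTRL and rose by 0.83 ± 0.071, and LY9 rose by 0.54 ± 0.047. Of 19 TNF family ligand and receptor genes 11 rose and 6 fell; 3 of those that rose, CD27, LTB and TNFRSF25, named after their values were seen, passed the filter through the siIRF4 libraries only, and 7 rose where a mean of at least 5 TPM was required. CD70 averaged 67.98 ± 2.53 TPM in siIRF4 and 109 ± 4.76 TPM in CTRL and fell by 0.67 ± 0.049, and CD40 rose by 0.66 ± 0.065. Of 24 integrin and adhesion genes 11 rose and 5 fell, among them the tetraspanins CD53, CD82 and CD9, which rose by 0.92 ± 0.039, 0.91 ± 0.044 and 0.61 ± 0.038, and ITGA6, which fell by 0.65 ± 0.069. Of 14 chemokine and receptor genes 5 rose and 4 fell, with CXCL16 at 0.65 ± 0.055 and CXCR3 at -0.80 ± 0.066. Of these 14 genes 1 passed the filter through the siIRF4 libraries only, and 1 adhesion gene through the CTRL libraries only.

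EP300 and CREBBP, which encode the related acetyltransferases p300 and CBP, rose. EP300 had 50.2, 41.9 and 41.2 TPM in siIRF4, against 35.6, 35.01 and 34.4 TPM in CTRL, and rose by 0.33 ± 0.071 (adjusted p = 0.00217 in limma). CREBBP, its paralogue, had 26.1, 22.4 and 22.9 TPM in siIRF4, against 19.2, 16.5 and 18.7 TPM in CTRL, and rose by 0.37 ± 0.076. Both were named after their values were seen. Of 31 acetyltransferase, bromodomain and deacetylase genes 15 rose and 2 fell, with a median of 0.14, while 9 rose without CTRL replicate 1 and 10 rose and 4 fell under median-of-ratios scaling. The falls numbered 1 without siIRF4 replicate 2 or 3 or CTRL replicate 2 or 3. BRD3, a reader of acetylated histones, rose by 0.74 ± 0.079, and HDAC7 by 0.62 ± 0.067. Of 24 polycomb and DNA methylation genes 8 rose and 9 fell, beside 31.4% and 23.1% over all genes. EZH2, the H3K27 methyltransferase of dividing cells, averaged 90.5 ± 3.20 TPM in siIRF4 and 142 ± 1.68 TPM in CTRL and fell by 0.64 ± 0.042. EZH1, its relative, rose by 0.48 ± 0.054 and JARID2, a cofactor of the complex, by 0.86 ± 0.054. APOBEC3B, a cytidine deaminase, had 58.4, 58.4 and 56.6 TPM in siIRF4, against 132, 132 and 121 TPM in CTRL, and fell by 1.14 ± 0.047.

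Few genes differed in their response between MM1S and MM1R by the test of that difference. The difference of the siIRF4 effects, MM1S minus MM1R, was called for 311 of 12763 genes (2.44%) in a limma fit of 12 libraries, 197 (1.54%) with a higher and 114 (0.893%) with a lower effect in MM1S, a split that became 155 and 187 under median-of-ratios scaling. Without CTRL replicate 3 of MM1S 239 genes were called, and without any other 1 of the 6 MM1S libraries 176 to 190. A difference that was not called is not shown to be absent. IRF4 itself fell further in MM1S, with an effect of -1.01 in MM1S and -0.39 in MM1R, a difference of -0.62 ± 0.11 (adjusted p = 0.0122 in limma). In MM1R, IRF4 averaged 291 TPM in siIRF4 and 380.3 TPM in CTRL.

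The largest differences were in genes with MM1S group means of at most 23.8 TPM. NLRP11, of the NOD-like receptor family, fell by 1.005 ± 0.097 in MM1S and changed by 0.15 in MM1R, a difference of -1.15 ± 0.076. It averaged 1.73 ± 0.0785 TPM in MM1S siIRF4 and 4.49 ± 0.303 TPM in MM1S CTRL. LHX8, a homeobox gene, rose by 0.54 ± 0.084 in MM1S and changed by -0.93 in MM1R, and NRTN, the neurotrophic factor neurturin, rose by 0.46 ± 0.080 in MM1S and changed by -0.59 in MM1R. F2RL3, a thrombin receptor, and NLRP5 rose by 1.21 ± 0.078 and 1.08 ± 0.093 in MM1S, with 0.41 and 0.20 in MM1R. ARSI, a sulfatase, fell by 1.09 ± 0.089 in MM1S, with -0.25 in MM1R, and HSPA1B, whose reads may be shared with its near-identical copy HSPA1A, fell by 0.96 ± 0.079 in MM1S, with -0.19 in MM1R. CHRNA6 rose by 0.71 ± 0.14 in MM1S and changed by 1.70 in MM1R. TNFRSF8 and CD79A were not called in MM1S and changed by -0.68 and 0.86 in MM1R. The adjusted p of these 10 differences lay between 1.69e-06 and 0.0251 in limma. The TNFRSF8 difference lost its call in 6 alternatives, among them those without siIRF4 replicate 1 (adjusted p = 0.0534), siIRF4 replicate 3 (0.0569) or CTRL replicate 1 (0.0580) of MM1S, CD79A in 3, among them that without CTRL replicate 1 (0.0522), and NLRP5 with a pseudocount of 0.1.

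Against the mean effect of the other 3 lines, the MM1S effect differed in 4335 genes (34.0%), 2520 (19.7%) higher and 1815 (14.2%) lower, in a limma fit of 24 libraries. The genes were filtered on their MM1S levels only, and a gene near 0 TPM in a KMS-12 line can show little change there. KRT15 averaged at most 0.598 TPM in either group of the KMS-12 lines. The largest differences higher in MM1S were of KRT15 (1.96 ± 0.21), TXNDC5 (1.66 ± 0.40), FRMD3 (1.52 ± 0.14), PLK2 (1.495 ± 0.11) and GBP4 (1.37 ± 0.10), and those lower in MM1S of CYP26A1 (-1.596 ± 0.15), HES6 (-1.26 ± 0.11), SMOC1 (-1.20 ± 0.096), CAV2 (-1.09 ± 0.080) and CCL3 (-1.08 ± 0.26). In MM1R alone the effects were 3.01 for KRT15, 2.26 for FRMD3, 1.68 for GBP4, -1.500 for HES6, -0.97 for SMOC1, -1.57 for CAV2 and -1.79 for CCL3, all of the same sign as in MM1S. Of these 10 genes PLK2, SMOC1 and CAV2 differed from MM1R by the test above (adjusted p = 0.0238, 0.00719 and 0.00648 in limma), and the other 7 were not called, with adjusted p of 0.0736 to 0.875. TXNDC5 was not called in MM1S, with 93.5, 122 and 144 TPM in siIRF4 and 131, 100.05 and 139 TPM in CTRL, and had effects of -1.38 in MM1R, -2.004 in KMS-12-PE and -1.75 in KMS-12-BM. PLK2 had effects of 2.17 in MM1S, 2.65 in MM1R, -0.76 in KMS-12-PE and 0.14 in KMS-12-BM. CYP26A1 had effects of -2.18 in MM1S, -1.72 in MM1R, -0.12 in KMS-12-PE and 0.08 in KMS-12-BM.

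Tested alone on the same genes, siIRF4 against CTRL gave calls for 50.2% of genes in MM1R, 37.6% in KMS-12-PE and 16.1% in KMS-12-BM, in the limma fit of each line. The medians of the replication and G1/S list were, side by side, -0.80 in MM1S, -0.70 in MM1R, -0.02 in the BM and -0.08 in the PE line of KMS-12, and those of the mitosis list -0.60 in MM1S, -0.71 in MM1R, 0.09 in the BM and 0.01 in the PE line. The RRM2 effect differed from the mean of the other lines by -0.79 ± 0.072 (adjusted p = 5.49e-08 in limma). That mean joins MM1R, with a list median of -0.70, to the KMS-12 lines. The difference therefore does not set RRM2 in MM1S apart from MM1R. The interferon-stimulated medians were 0.53 in MM1S, 0.48 in MM1R, 0.13 in the BM and 0.28 in the PE line. MYC had effects of 0.23 in MM1S, 0.46 in MM1R, -0.47 in the BM and -0.29 in the PE line. The lines were not tested against each other for the list medians. The difference of MYC from the mean of the other lines was 0.33 ± 0.051 (adjusted p = 3.05e-05 in limma). MAF averaged 723.4 TPM in siIRF4 and 437.9 TPM in CTRL of MM1R, where its effect was 0.72, and at most 3.61 TPM in either group of the KMS-12 lines.

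**Figure D4:**
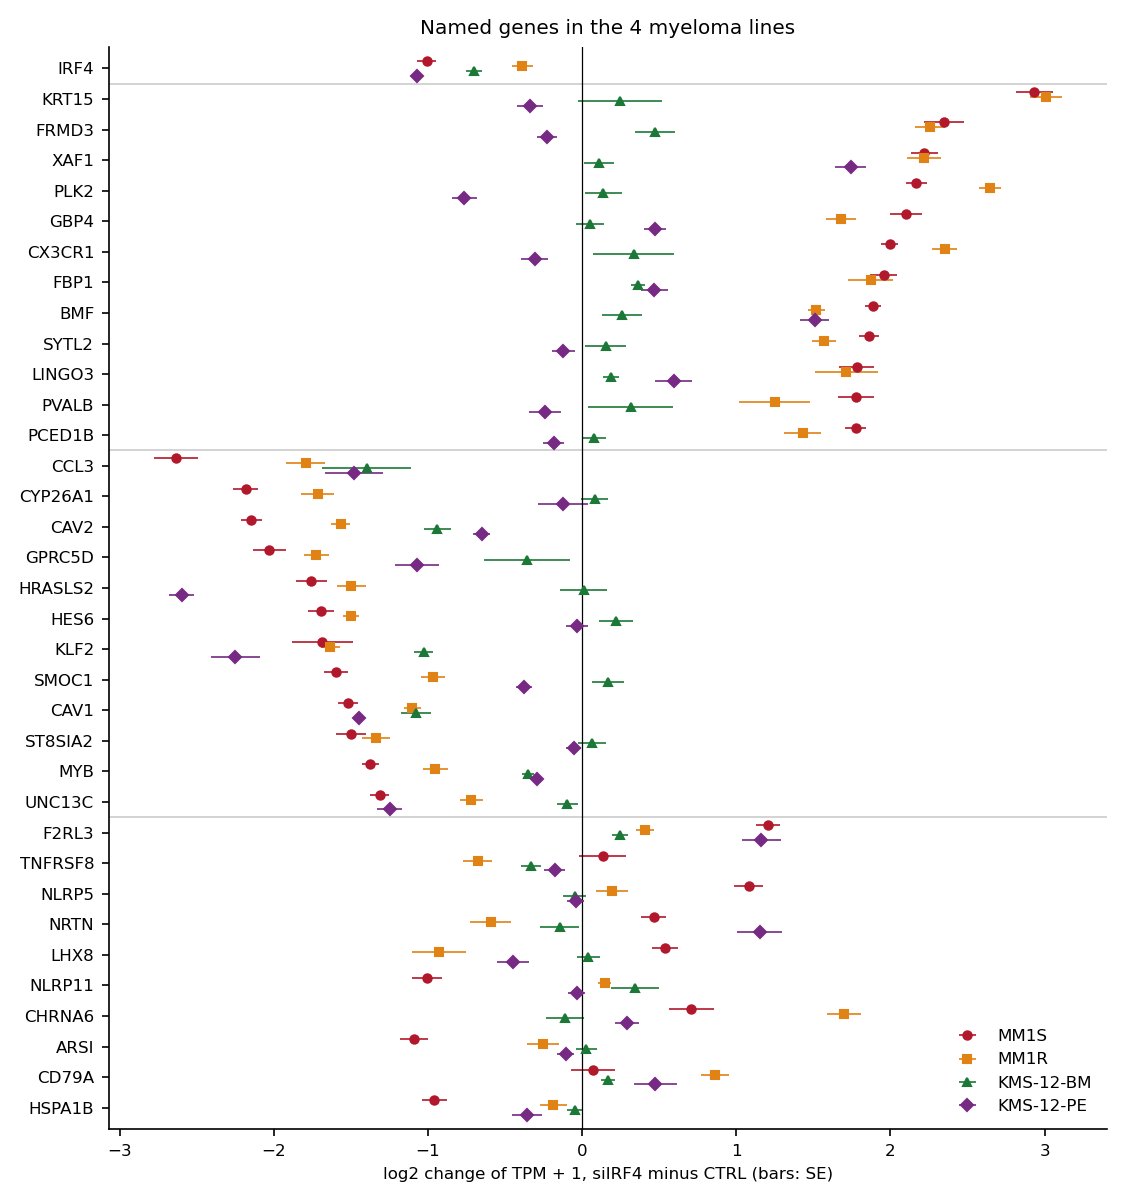
Log2 change of TPM + 1 (siIRF4 minus CTRL, with SE bars) of IRF4, the 12 largest rises, the 12 largest falls and the 10 genes that differ most from MM1R in MM1S (circles), MM1R (squares), KMS-12-BM (triangles) and KMS-12-PE (diamonds), from a fit of each line. KRT15 is at 2.93 in MM1S and 3.01 in MM1R, and IRF4 is at -1.01 in MM1S and -0.39 in MM1R.

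Transcripts of other cell types were present in all MM1S libraries. Of 40 keratinocyte markers, 27 to 36 had at least 1 TPM in each siIRF4 library and 34 to 36 in each CTRL library, and none was at 0. Their summed TPM was 894.5, 863.1 and 508.7 in siIRF4, against 708, 773.3 and 980 in CTRL, so that the groups overlapped and siIRF4 replicate 3 was the lowest. PERP, KRT10 and KRT15 averaged 128, 83.2 and 82.3 TPM in siIRF4 and 152, 101 and 10.0 TPM in CTRL. MM1R, which also expresses these genes and S100A9 and has KRT5 near 0, summed to 482.2 to 519.8 TPM in siIRF4 and 322.6 to 333.9 TPM in CTRL. KRT5, the keratin of basal keratinocytes, had 38.2, 48.4 and 16.8 TPM in siIRF4, against 40.2, 46.7 and 65.8 TPM in CTRL. KRT14, its partner, had 38.4, 46.95 and 17.6 TPM in siIRF4, against 40.1, 47.9 and 56.9 TPM in CTRL. S100A8, a calcium-binding protein of inflamed skin and of myeloid cells, had 49.2, 63.4 and 17.1 TPM in siIRF4, against 40.9, 41.5 and 75.8 TPM in CTRL.

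All 3 were lowest in siIRF4 replicate 3 and highest in CTRL replicate 3, and they were not called (adjusted p = 0.33, 0.328 and 0.619 in limma). KRT5 averaged 0.0123 TPM in MM1R siIRF4 and 0.0173 TPM in MM1R CTRL. It averaged 0.0172 TPM in KMS-12-BM siIRF4 and 0 TPM in KMS-12-BM CTRL, against 17.4 TPM in siIRF4 and 55.8 TPM in CTRL of the KMS-12-PE line. Of 34 keratinocyte markers tested in MM1S, 2 rose and 1 fell, and 1 to 10 fell over the alternative analyses. Without siIRF4 replicate 1, 3 fell, and 2 fell without siIRF4 replicate 2 or without CTRL replicate 1. KRT15 averaged 164.9 TPM in MM1R siIRF4 and 19.6 TPM in MM1R CTRL, where KRT5 was near 0, and in MM1S siIRF4 replicate 3, the library with the lowest KRT5, it had 77.8 TPM, against 83.3 and 85.6 TPM in the other siIRF4 libraries. PERP, an epithelial adhesion gene that other cells also express, fell by 0.24 ± 0.042, and JUP, a junction protein, at 0.18 ± 0.064, lost its call in 8 of 14 alternative analyses, those without siIRF4 replicate 1, CTRL replicate 1 or CTRL replicate 2, median-of-ratios scaling, the fit of all 24 libraries and the replicate block among them.

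Stromal markers were also present. All 20 stromal markers were above 0 TPM in every MM1S library, and 18 to 20 of them reached 1 TPM in siIRF4 and 17 to 19 in CTRL, against 3 in each MM1R library. In KMS-12-PE 14 to 16 of them reached 1 TPM in siIRF4 and 16 to 20 in CTRL. The 20 summed to 190.9 to 251.7 TPM in siIRF4 and 187.1 to 344.9 TPM in CTRL, where COL1A1, a collagen, had 24.9, 20.4 and 21.3 TPM in siIRF4, against 70.3, 18.7 and 28.2 TPM in CTRL. SPARC and DCN, matrix proteins, changed by -0.76 ± 0.19 and 0.52 ± 0.16, and each lost its call without siIRF4 replicate 2 or without CTRL replicate 3, DCN also without siIRF4 replicate 1 or under median-of-ratios scaling and SPARC without siIRF4 replicate 3. The 14 myeloid markers summed to 89.8 to 195.3 TPM in siIRF4 and 128.9 to 198.7 TPM in CTRL, and 11 of them, the defining CD14, LYZ and CSF1R included, did not pass the filter. Those that passed, S100A8, S100A9 and CD68, averaged 43.2, 82.9 and 26.8 TPM in siIRF4 and 52.7, 75.4 and 24.1 TPM in CTRL. S100A8 and S100A9 are also on the keratinocyte list, so the myeloid and keratinocyte sums share these genes. In MM1R, where S100A8 was at 0 TPM, S100A9 averaged 94.7 TPM in siIRF4 and 24.8 TPM in CTRL. The source of S100A9 in MM1S was not tested. T and NK cell markers summed to 71.8 to 77.0 TPM in siIRF4 and 81.4 to 88.8 TPM in CTRL, mostly from TRAT1, with 57.3 TPM in siIRF4 and 74.03 TPM in CTRL. Erythroid and endothelial markers were represented mainly by HBD and ESAM, which fell by 0.64 ± 0.065 and 0.53 ± 0.049. With the keratinocyte and stromal markers and genes open to carry-over from another line left out, 4018 genes rose and 2961 fell. Their part in other results was otherwise not tested.

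**Figure D5:**
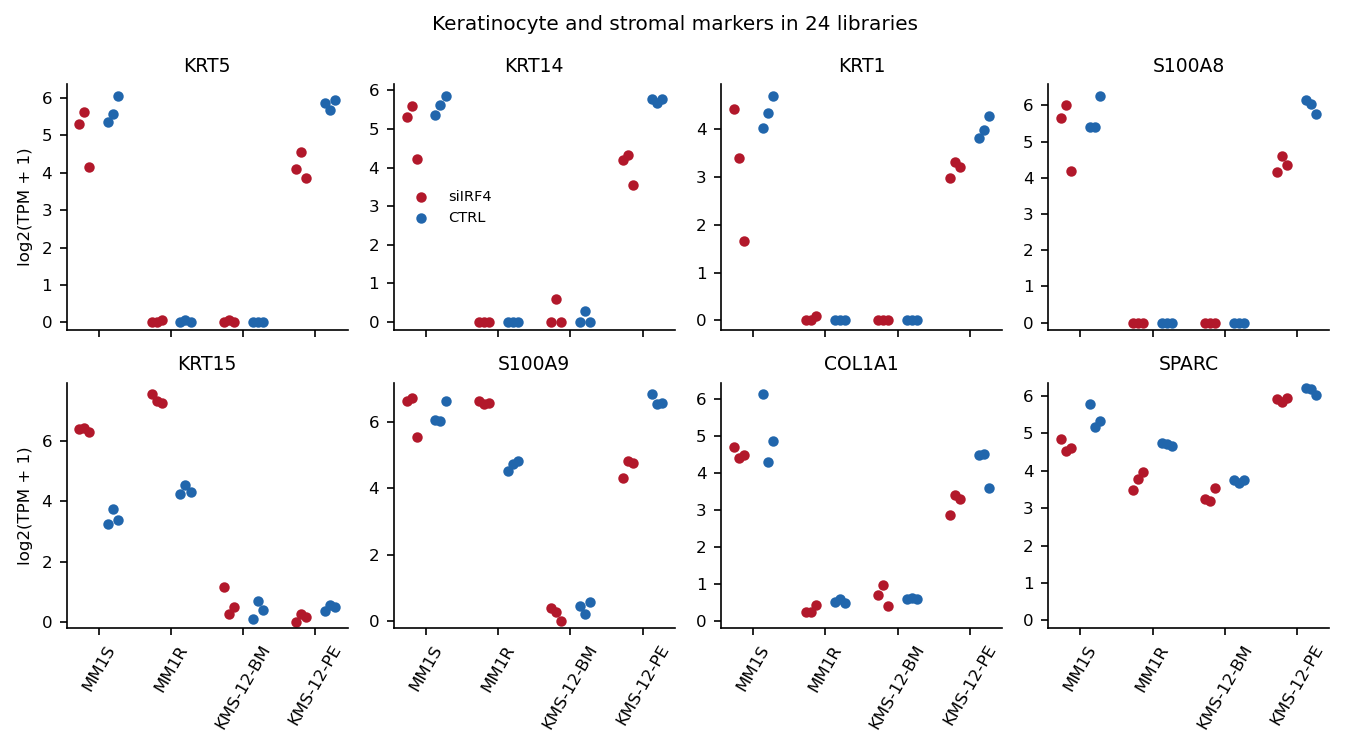
Log2(TPM + 1) of 8 keratinocyte, myeloid and stromal markers in the 24 libraries, with siIRF4 in red at the left and CTRL in blue at the right of each line. KRT5, KRT14, KRT1 and S100A8 are present in MM1S and KMS-12-PE and at or near 0 in MM1R and KMS-12-BM, while KRT15 is high in the siIRF4 libraries of MM1S and MM1R.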

How the data were processed

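Total RNA of MM1S cells was sequenced after IRF4 knockdown and in controls, with 3 libraries per group, as the labels give them. The authors deposited 1 table of TPM values for all 24 libraries; per the submitters' processing notes it comes from STAR, featureCounts and hg19, with FastQC and MultiQC for quality, and no versions are named there. No annotation or strand setting of the counting is stated in the sources used here. Of 25370 gene names, 28 that had turned into calendar dates were left out, and no mitochondrial or immunoglobulin segment genes are listed. TPM fixes each library's sum, so that a change is a change of share.

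Genes with at least 1 TPM in at least 3 of the 6 libraries were tested as log2(TPM + 1) with limma 3.58.1 (R 4.3.3; trended, robust empirical Bayes prior) and Benjamini-Hochberg adjustment over 12763 genes, at 0.05. Fold changes on this scale understate low genes. Differences between lines were contrasts in fits of 12 (MM1R) or 24 libraries on the same genes. Whole reads were recovered from the TPM steps for 20484 genes (100.0% of those tried, at a tolerance of 0.02 reads), which hold at least 99.96% of TPM; voom on these reads called 7453 genes. Tables and figures used Python 3.11.15, numpy 2.4.6, pandas 2.3.3 and matplotlib 3.10.9. The fits were checked on simulated data with independent noise and few changed genes. That setting differs from these libraries, so the check covers the working of the fit and not the calls made here.

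The text names the 12 largest called rises and falls among genes whose groups did not overlap and whose higher group averaged 5 TPM or more, the 5 largest called differences each way from MM1R and from the other lines, the 5 most abundant genes, all members of the core lists and up to 3 members each way of the other lists, with exceptions stated; microRNA, antisense and other RNAs without a proper gene name were passed over in the rankings. The members and all 57 gene lists were chosen with earlier results of these data known. Promoters (250 bases before to 50 after the start) matched 9133 of the tested genes (71.6%). Motif shares of the lists were set against all promoters of the table and against those matched to genes tested. Alternatives changed the pseudocount to 0.1, the filter, the scaling, the prior, a replicate block, the libraries in the fit and each library left out.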

Additional observations from a re-analysis of the deposited data

Results flagged for a closer look

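The effect of siIRF4 on IRF4 differed between MM1S and MM1R by -0.62 on the log2 scale (adjusted p = 0.0122 in limma, 12 libraries). IRF4 had 154, 130.4 and 137 TPM in the MM1S siIRF4 libraries and 298, 267 and 285 TPM in the MM1S CTRL libraries. By the same test, the differences for genes with a higher effect in MM1S were 1.47 for LHX8, 1.06 for NRTN, 0.88 for NLRP5, 0.81 for TNFRSF8 and 0.80 for F2RL3. Those for genes with a lower effect in MM1S were -1.15 for NLRP11, -0.99 for CHRNA6, -0.83 for ARSI, -0.79 for CD79A and -0.77 for HSPA1B.

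Against the mean effect of the other 3 lines, in a limma fit of 24 libraries, the differences higher in MM1S were 1.96 for KRT15, 1.66 for TXNDC5, 1.52 for FRMD3, 1.495 for PLK2 and 1.37 for GBP4. The differences lower in MM1S were -1.60 for CYP26A1, -1.26 for HES6, -1.20 for SMOC1, -1.09 for CAV2 and -1.08 for CCL3. In MM1R alone the siIRF4 effects were 3.01 for KRT15, 2.26 for FRMD3, 2.65 for PLK2, 1.68 for GBP4, -1.72 for CYP26A1 and -1.50 for HES6, and the HES6 difference from MM1R was not called (adjusted p = 0.367 in limma). These genes were chosen as the largest called differences, so their sizes are a description. They were filtered on MM1S levels only, and KRT15 averaged at most 0.598 TPM in either group of the KMS-12 lines. TXNDC5 averaged 119.9 TPM in MM1S siIRF4 and 123 TPM in MM1S CTRL, and its reads may be shared with a read-through transcript.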

How the results depend on the processing

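No called value changed sign under an alternative. The count for MM1S siIRF4 against CTRL lay between 6060 and 7466 genes, with at least 86.4% of the calls tested kept the same way and 0 called opposite ways, and IRF4 lay between -1.08 and -0.96. The difference from the mean of the other lines was called for 3701 to 4536 genes. The difference from MM1R moved most: 311 genes, 197 higher and 114 lower, became 191 with 98 higher without a filter, and 204 with 72 lower with a prior that had no trend or robust fit. Median-of-ratios scaling gave 187 lower. With the replicate number as a block, 168 genes were called, 95 higher and 73 lower. Same-numbered MM1S libraries did not deviate together (r = -0.11, -0.04 and -0.06). This sees only a shared deviation and cannot show whether the libraries were set up as pairs. The block gave 6711 calls for siIRF4 against CTRL. Leaving out 1 MM1S library gave 176 to 239 genes, 93 to 153 higher and 67 to 91 lower. The cause was not tested. Of the values of named genes under alternatives, 5519 kept their call status, 97 lost a call and 30 gained one. Of the named differences between lines, 236 kept and 10 lost their call, 6 of TNFRSF8, 3 of CD79A and 1 of NLRP5. At 17.3 to 24.02 M reads, small changes of genes under 5 TPM were not detectable.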

Other observations

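Further gene lists moved in mixed ways between MM1S siIRF4 and CTRL, where 31.4% of all genes tested rose and 23.1% fell. Of 13 genes of the IL-6 receptor and of STAT3 targets, 8 rose and 3 fell by the limma test, with a median log2 change of 0.28. IL21R, a cytokine receptor chain, rose by 0.60 ± 0.064 and STAT3 by 0.47 ± 0.056, while IL10RA and the signalling chain IL6ST fell by 0.63 ± 0.069 and 0.23 ± 0.060. Of 23 hypoxia genes 6 rose and 10 fell, with a median of -0.05, among them ADM, the vasoactive peptide adrenomedullin, which averaged 242 ± 3.53 TPM in siIRF4 and 336 ± 16.1 TPM in CTRL. Of 21 NRF2 target genes 4 rose and 8 fell, with a median of -0.10; TXNRD1, a thioredoxin reductase, fell by 0.31 ± 0.043 and HMOX1, heme oxygenase, rose by 0.36 ± 0.091.

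Of 35 translation factor genes 12 rose and 15 fell, with a median of 0.01 that took the other sign in 2 alternative analyses. EIF4EBP1, the inhibitor of cap-binding that mTORC1 controls, averaged 90.2 ± 1.77 TPM in siIRF4 and 132 ± 8.07 TPM in CTRL and fell by 0.54 ± 0.050. Of 7 metallothionein and zinc genes 1 rose, MT2A by 0.41 ± 0.076, and MT2A was not called in the fit of all 24 libraries. Of 7 APOBEC3 and AID genes 2 rose and 3 fell, and 1 rose without siIRF4 replicate 3, CTRL replicate 2 or CTRL replicate 3. Few markers of other blood and vessel cells were tested: 2 of 3 T and NK cell markers rose and 1 fell, and 0 of 2 erythroid and 0 of 2 endothelial markers rose and all 4 fell. Of the endothelial markers, 1 passed the filter through the CTRL libraries only, and the filter selects such a gene for its fall.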
